A study of Mus musculus with 12 samples.

Results

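The cathepsins and the lysosomal proton pump were followed across peritoneal macrophages cultured with or without the matrix protein SPARC. Members were taken by symbol from the protein-coding rows of the count table, as Cts followed by 1 letter for the cathepsins and as Atp6v or Atp6ap for the pump. The rule found 18 cathepsins and 25 pump genes, 43 of the 47729 genes in the table, of which 22048 are protein-coding. A test was possible for 12 cathepsins and 18 pump genes, since the other 6 and 7 had too few reads. The cells came from C57BL/6 mice that had received either thioglycollate (TG, 3%, a single injection 4 days before collection) or an IL-4 complex (IL4c). Each IL4c mouse had 2 injections, 2 days apart, of 5 ug IL-4 mixed with 25 ug of an antibody to IL-4, and cells were taken 2 days after the last. All cells were plated for 2 h, washed to keep those that adhered, and left untreated or given SPARC at 20 ug/ml for 24 h. This gives 4 groups of 3 polyA RNA-seq libraries, TG untreated, TG SPARC, IL4c untreated and IL4c SPARC. The untreated wells had no control protein named in the labels, and age, sex and pooling of mice are not stated there.

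Cathepsins are proteases that work mainly in the acid interior of the lysosome. Most are cysteine proteases (B, C, F, H, K, L, O, S, W and Z), while D and E are aspartic proteases and A and G are serine proteases. The acid that activates them is supplied by the vacuolar ATPase, a rotary pump whose cytosolic V1 part splits ATP and whose membrane V0 part carries protons. In macrophages this machinery digests engulfed material and cuts antigens for presentation, and part of it is shared with the bone-resorbing osteoclast. Many genes of the lysosome carry near their start the letters CACGTG, the core of the element bound by TFEB and its relatives.

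Promoter windows of RefSeq (GRCm38.p6), which run from 250 bases before to 50 bases after a gene start, were present for 14 of the 18 cathepsins and 18 of the 25 pump genes. The search took 5 patterns on both strands. A member gene was counted as holding a pattern if any of its windows did, while the share of all windows counts each window singly. A gene with several windows thus has more chances, so the counts of genes and the shares of windows are not like measures. CACGTG, which lies inside the next 2 patterns, was found in 4 of the 14 cathepsins and 4 of the 18 pump genes, against 7.15% of all 32851 windows. The longer TCACGTGA was found in 2 cathepsins (Ctsa and Ctsd) and 3 pump genes (Atp6v1a, Atp6v0d1 and Atp6v0e), against 0.974% of all windows. TCACGTGA with G before and C after it, the full consensus of the lysosomal element, was in none of them and in 0.326% of all windows. GAAA repeated after any 2 bases, a pattern of interferon response elements, was in 2 cathepsins (Ctss and Ctso), 1 pump gene (Atp6v1d) and 3.44% of all windows. TTC and GAA with any 4 bases between, a pattern bound by STAT6, the factor downstream of IL-4, was in none of the cathepsins, in 2 pump genes (Atp6v0e2 and Atp6v1g3) and in 6.95% of all windows. The windows below belong to 3 cathepsins that were lower and 1 that was higher with SPARC in IL4c cells. Over all 12 libraries, Ctsa was called lower only in the fit by replicate number given below. Sequences run 5′ to 3′ along the gene, with CACGTG or TCACGTGA in capitals. The 3 lower genes were picked for holding these letters, so the windows do not compare lower with higher genes. Ctsb and Ctsl were also lower in the fit by replicate number. CACGTG was found for Ctsl and no pattern for Ctsb. The Ctsd window is chr7:142387828-142388077 (minus strand), the Ctsa window chr2:164833523-164833784 (plus strand), the Ctsf window chr19:4854915-4855164 (plus strand) and the Ctsz window chr2:174439040-174439289 (minus strand). In the GENCODE annotation the Ctsa gene begins at 164832873, so the Ctsa window belongs to a start inside the gene. It was taken among the Ctsa windows for holding TCACGTGA. It also runs a little past that start, at 262 bases against 250 for the others. The Ctsz window holds none of the 5 patterns, which says only that these letters are not in it.
Ctsd: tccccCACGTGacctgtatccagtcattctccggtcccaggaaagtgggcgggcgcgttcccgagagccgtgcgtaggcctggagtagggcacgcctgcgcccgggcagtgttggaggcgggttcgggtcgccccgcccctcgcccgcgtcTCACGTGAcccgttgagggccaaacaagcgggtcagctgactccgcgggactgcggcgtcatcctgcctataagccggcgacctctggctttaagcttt
Ctsa: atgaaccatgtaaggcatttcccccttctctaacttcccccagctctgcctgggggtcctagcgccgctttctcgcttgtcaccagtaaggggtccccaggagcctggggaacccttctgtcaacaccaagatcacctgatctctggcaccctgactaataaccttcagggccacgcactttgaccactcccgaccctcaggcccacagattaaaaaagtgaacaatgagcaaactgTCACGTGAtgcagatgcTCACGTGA
Ctsf: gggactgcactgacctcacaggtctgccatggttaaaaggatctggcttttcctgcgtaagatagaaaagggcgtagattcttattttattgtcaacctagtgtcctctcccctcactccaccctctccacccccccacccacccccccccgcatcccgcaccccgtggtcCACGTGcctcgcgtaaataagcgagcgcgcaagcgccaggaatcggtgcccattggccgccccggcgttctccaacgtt
Ctsz: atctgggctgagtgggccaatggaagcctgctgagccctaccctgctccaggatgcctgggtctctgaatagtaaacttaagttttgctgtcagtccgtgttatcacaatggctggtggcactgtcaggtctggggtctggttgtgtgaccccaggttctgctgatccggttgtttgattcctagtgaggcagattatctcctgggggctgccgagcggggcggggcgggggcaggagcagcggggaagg

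Libraries held 31501941 to 42288785 counts. Macrophage markers (8 of 9 listed were in the table, among them Adgre1, Csf1r and Lyz2) summed to 20530 to 34910 CPM (counts scaled to library size) in untreated libraries, to 30330 to 31080 in TG SPARC and to 12890 to 18780 in IL4c SPARC. Lyz2 was the most abundant of these markers in every library, with a mean of 16050 CPM in IL4c untreated and 6618 in IL4c SPARC. The means of Mertk (340 and 111 CPM) and Cd68 (1584 and 1408) were also lower in IL4c SPARC, and those of Csf1r were 1368 and 1360. The means of Adgre1 (2309 and 2719), Itgam (2710 and 3081), Cd14 (224 and 253) and Fcgr1 (8.27 and 159) were higher. The 2 TG libraries numbered 1, untreated and SPARC, stood apart from the other TG libraries. The 11 B cell markers summed to 2449 and 1873 CPM in them, against 176 to 284 in the other 4 TG libraries, 158 to 397 in IL4c untreated and 79.7 to 177 in IL4c SPARC. For 7 of 12 cathepsins and 14 of 18 pump genes, both of these libraries lay below all other TG libraries, as did 16.6% of all 15232 genes tested. Only Ctse lay above them, as did 21.3% of all genes. Neutrophil markers (4 of 11 were tested, and Ly6g had at most 1 count) summed to 41.6 to 63.1 CPM in TG untreated and 92.6 to 290 in TG SPARC, and to 58.5 to 116 and 63.0 to 200 in the IL4c groups. Nearly all of this was Mmp8, S100a8 and Prtn3. With SPARC the mean of Mmp8 went from 36.9 to 123 CPM in TG and from 27.3 to 71.2 CPM in IL4c cells. S100a8 went from 8.69 to 36.5 and from 7.6 to 31.8 CPM, while Prtn3 went down, from 4.18 to 1.63 and from 51.3 to 12.1 CPM. The other listed markers had at most 12 counts in any library, apart from Camp (at most 85). In bulk RNA, fewer cells of a type and less RNA per cell cannot be told apart. The part of these markers in the results was not tested, and results that rest on the number-1 libraries are given without them too.

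Cathepsin transcripts were among the most abundant in these cells. Together they made up 2.01% to 5.35% of all counts in a library, and the pump genes 0.391% to 0.849%. Ctsd, the main lysosomal aspartic protease, ranked between 1 and 6 among all genes by count, Ctsb, a cysteine protease with both endo- and exopeptidase activity, between 4 and 9, and Ctss, which trims the invariant chain of MHC class II, between 9 and 18. Per length, in the deposited FPKM averaged over the 12 libraries, the order was Ctsd (7475), Ctss (3861), Ctsb (2802), Ctsl (1174) and Ctsz (1148), with Ctsa, Ctsh, Ctsc, Ctsk, Ctso, Ctsf and Ctse below. The last of these, Ctse, averaged 0.755 FPKM. Among pump genes, Atp6v0c, which encodes the proton-carrying ring subunit, was highest at a mean of 963 FPKM, followed by Atp6v0b (248.6) and Atp6v1b2 (233).

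**Figure D1:**
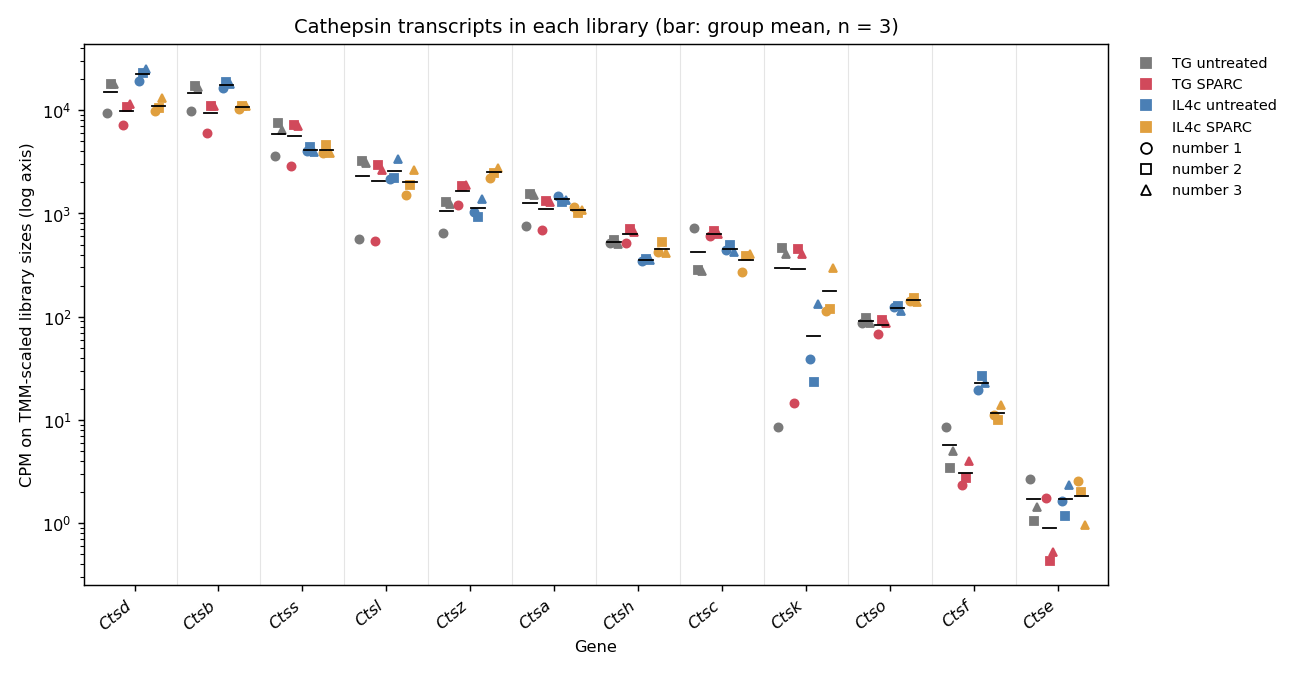
CPM on a log axis for the 12 tested cathepsins in each of the 12 libraries. Colours are groups, marker shapes the library number and bars group means (n = 3). The 2 TG libraries numbered 1 lie far below the other TG libraries for Ctsk and Ctsl, and the IL4c SPARC libraries lie below IL4c untreated for Ctsd and Ctsb and above them for Ctsz.

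Cathepsin transcripts together took a smaller share of counts in the IL4c libraries with SPARC than in those without. This drop lay in Ctsd and Ctsb, and single members moved in opposite directions. The cathepsin share was 4.91% ± 0.446 (SD, n = 3) in IL4c untreated and 3.18% ± 0.287 in IL4c SPARC, and the 3 SPARC libraries (2.93% to 3.50%) all lay below the untreated ones (4.45% to 5.35%). The two-sided exact permutation p was 0.1, the smallest that 3 against 3 can give, so this design cannot pass 0.05 for a single value. Ctsd alone took 1.893% to 2.488% of counts in IL4c untreated and 0.9638% to 1.281% in IL4c SPARC. Ctsb took 1.607% to 1.795% and 1.013% to 1.076%. The share of the other cathepsins together was not lower with SPARC on average. Of the 12 cathepsins tested, 1 rose (Ctsz) and 2 fell (Ctsd and Ctsf) by the quasi-likelihood test of edgeR at a Benjamini-Hochberg adjusted p under 0.05, where 27.8% of all genes tested were called, 15.1% higher and 12.7% lower. With the replicate number as a block, which compares SPARC with untreated within same-numbered libraries, 4 rose (Ctsz, Ctso, Ctsk and Ctsh) and 5 fell (Ctsd, Ctsb, Ctsa, Ctsl and Ctsf), where 45.2% of all genes were called, 22.8% higher and 22.4% lower. The median log2 change of the 12 was -0.18, against 0.00 over all genes. The IL4c libraries with and without SPARC did not overlap for 8 of 12 cathepsins, 3 higher and 5 lower, and for 50.4% of all genes.

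Ctsd (ENSMUSG00000007891.15, chr7:142375911-142388038, minus strand, GRCm38) was the most abundant cathepsin and fell. Its levels were 19350, 22850 and 25380 CPM in IL4c untreated and 9765, 10420 and 13080 CPM in IL4c SPARC. All SPARC libraries were below all untreated ones, and within numbers the level was 1.94- to 2.19-fold lower. The log2 change was -1.02 ± 0.31 (SE, edgeR adjusted p = 0.032), and with the replicate block -1.03 ± 0.12 (adjusted p = 0.000713). Ctsd exons share 34.4% of their bases with Gm49369, a same-strand gene of the annotation that has no row under that symbol in the count table.

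Ctsb showed a like drop that, by edgeR over all 12 libraries, passed with the block and not without it. It had 16430, 18700 and 18030 CPM in IL4c untreated and 10260, 10940 and 10980 CPM in IL4c SPARC, with no overlap. The log2 change was -0.72 ± 0.29 (edgeR adjusted p = 0.0934), and -0.72 ± 0.11 with the block (adjusted p = 0.00175). Without the block it also passed by DESeq2, with the IL4c groups fitted alone, without both TG libraries numbered 1, and without TG untreated 1 alone (adjusted p = 0.0484). Its exons share 12.8% of their bases with Fdft1 on the opposite strand, and the strand setting of the counting is unknown.

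Ctsz, a carboxypeptidase also called cathepsin X, moved the other way. It rose from 1039, 932 and 1388 CPM in IL4c untreated to 2231, 2483 and 2791 CPM in IL4c SPARC, 2.01- to 2.66-fold within numbers. The groups did not overlap, and the log2 change was 1.16 ± 0.28 (edgeR adjusted p = 0.0134, block 0.000356). Ctsz lies at chr2:174427493-174439039 on the minus strand (ENSMUSG00000016256.10).

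Ctsf, a cysteine protease of low abundance here, fell with SPARC in IL4c cells. It had 19.6, 26.5 and 22.6 CPM in IL4c untreated and 11.2, 9.89 and 13.8 CPM in IL4c SPARC, with no overlap. Its log2 change was -0.98 ± 0.31 (edgeR adjusted p = 0.0402, block 0.0309). Ctsa, the protective protein of lysosomal sialidase and galactosidase, had a log2 change of -0.34 ± 0.08 with the block (adjusted p = 0.0111, 0.431 without it). Its exons share 10.5% of their bases with Pltp and 6.87% with Neurl2 on the opposite strand.

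Ctsk, the collagen-cutting cathepsin best known from osteoclasts, was the most variable cathepsin. It had 38.5, 23.3 and 134 CPM in IL4c untreated and 112, 119 and 295 CPM in IL4c SPARC, so the untreated library numbered 3 overlapped the SPARC group. Within numbers it was 2.20- to 5.09-fold higher with SPARC. The log2 change was 1.43 ± 1.33 (edgeR adjusted p = 0.47) and 1.67 ± 0.26 with the block (adjusted p = 0.00295). Ctsh, an aminopeptidase, passed with the block at 0.36 ± 0.10 (adjusted p = 0.0257, 0.0735 without), and Ctso at 0.27 ± 0.08 (adjusted p = 0.0303, 0.106 without). Ctsl, an endopeptidase, passed with the block at -0.36 ± 0.10 (adjusted p = 0.0217, 0.744 without), and 26.8% of its exon bases are covered by the antisense gene Gm47123. For Ctss, Ctsc and Ctse neither fit made a call.

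The calls made without the block depended on single libraries. The Ctsd call was lost in 9 of the 12 fits that left out a single library and held without TG untreated 1, TG untreated 3 or TG SPARC 1 (adjusted p 0.0101 to 0.131). The Ctsf call was lost in 8 (0.0106 to 0.133) and held without TG untreated 1 or 2 or TG SPARC 1 or 3. The Ctsz call was lost without IL4c untreated 1, IL4c untreated 2 or IL4c SPARC 3 (up to 0.063). Without both TG libraries numbered 1, 7 of 12 cathepsins passed, where 42.1% of all genes were called.

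In TG macrophages the same proteases had changes that did not pass the test without the block. No cathepsin was called by edgeR (2 had an unadjusted p under 0.05, and DESeq2 called 1, Ctsf), where 11.3% of all genes tested were called, 6.73% higher and 4.52% lower. With the block, Ctsz rose (0.67 ± 0.12, adjusted p = 0.00658) and Ctsd (-0.58 ± 0.12, 0.0133) and Ctsb (-0.65 ± 0.11, 0.0055) fell, where 27.3% of all genes were called, 14.3% higher and 13.1% lower. The median log2 change of the 12 cathepsins was -0.14, against -0.03 over all genes. No cathepsin had TG groups without overlap, against 30.4% of all genes. The cathepsin share of counts was 4.32% ± 1.26 (SD, n = 3) in TG untreated and 3.13% ± 0.969 in TG SPARC (exact permutation p = 0.3).

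Ctsd in TG cells had 9346, 17800 and 17990 CPM untreated and 7145, 10870 and 11460 CPM with SPARC. The untreated library numbered 1 lay below 2 of the SPARC libraries, yet each SPARC library lay below its own number, by 1.31- to 1.64-fold. Ctsz had 651, 1280 and 1240 CPM untreated and 1211, 1833 and 1884 CPM with SPARC, and was 1.43- to 1.86-fold higher within numbers. Across both injections all 6 same-numbered pairs were lower with SPARC for Ctsa, Ctsb, Ctsd, Ctsf and Ctsl, and all 6 were higher for Ctsh and Ctsz.

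Ctsc, or dipeptidyl peptidase I, which activates serine proteases of immune granules, went opposite ways in the TG pairs. It had 722, 287 and 276 CPM in TG untreated and 601, 679 and 628 CPM in TG SPARC, so only the untreated library numbered 1 was as high as the SPARC group. Without both libraries numbered 1 its log2 change was 1.24 (adjusted p = 0.00283), and with all libraries 0.57 ± 0.33 (adjusted p = 0.314). In that fit Ctsd (-0.66, 0.0472) and Ctsb (-0.60, 0.0172) passed as well, making 3 of 12, where 14.6% of all genes were called. Ctsk in TG cells was 8.44, 467 and 404 CPM untreated and 14.5, 449 and 404 CPM with SPARC. The number-1 libraries of both groups were far below the others, and the other pairs differed by at most 1.04-fold.

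**Figure D2:**
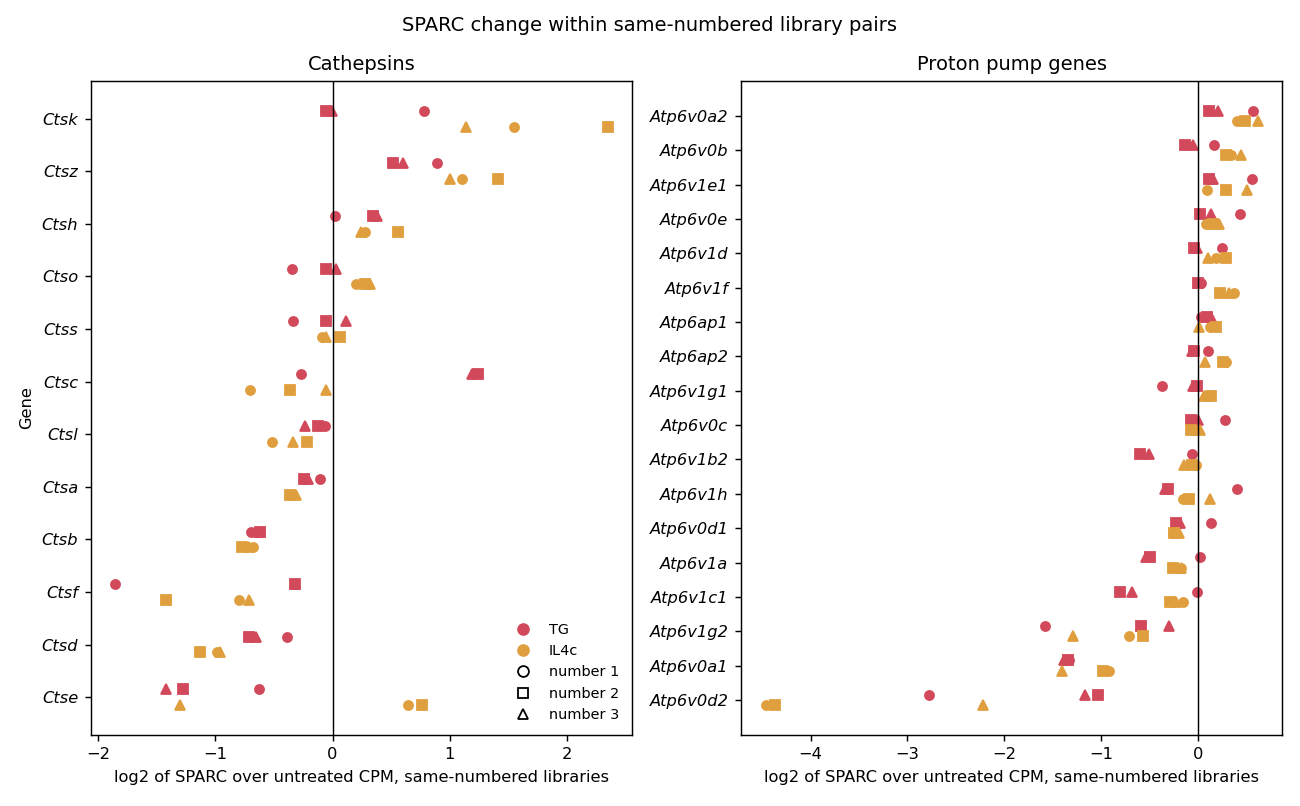
Log2 ratio of SPARC over untreated CPM within same-numbered libraries, for 12 cathepsins (left) and 18 pump genes (right). Colours are injections and shapes library numbers. Ctsd, Ctsb and Atp6v0a1 lie left of 0 in all 6 pairs and Ctsz and Atp6v0a2 right of 0, while Ctsc is at -0.27 in the TG pair numbered 1 and at 1.25 and 1.19 in the other TG pairs.

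Single genes of the proton pump moved in opposite directions with SPARC. In IL4c cells 1 of 18 pump genes rose (Atp6v0a2) and 1 fell (Atp6v0a1), where the background above is 27.8%. With the block 4 rose (Atp6v1f, Atp6ap2, Atp6v0b and Atp6v0a2) and 3 fell (Atp6v0a1, Atp6v1g2 and Atp6v0d2), against the 45.2% given above. In TG cells 1 fell without the block (Atp6v0a1), against 11.3% of all genes called, and 3 with it (Atp6v0a1, Atp6v1b2 and Atp6v1c1), against 27.3%. The median log2 change of the 18 was 0.04 in IL4c and -0.06 in TG cells. Groups did not overlap for 8 of 18 in IL4c cells (4 higher, 4 lower), against 50.4% of all genes, and for 4 of 18 in TG cells (2 higher, 2 lower), against 30.4%. The pump share of counts was 0.508% ± 0.0736 (SD, n = 3) in IL4c untreated and 0.468% ± 0.0588 in IL4c SPARC (exact permutation p = 0.6), and 0.698% ± 0.254 and 0.545% ± 0.134 in the TG groups (exact permutation p = 0.3).

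The calls made by this edgeR test without the block lay in the a subunit of V0, the arm that anchors the rotor housing and steers the pump to a given membrane. Atp6v0a1 (ENSMUSG00000019302.16, chr11:101009452-101063719, plus strand) had 230, 516 and 557 CPM in TG untreated and 91.7, 203 and 213 CPM in TG SPARC. In IL4c cells it had 247, 227 and 342 CPM untreated and 131, 115 and 130 CPM with SPARC. All SPARC libraries lay below all untreated ones within each injection, narrowly so for TG untreated 1. Its log2 change was -1.36 ± 0.37 in TG (edgeR adjusted p = 0.0438, block 0.000274) and -1.12 ± 0.37 in IL4c cells (0.0478, block 0.000236). Within numbers the level was 2.51- to 2.61-fold lower in TG cells and 1.88- to 2.64-fold lower in IL4c cells. Without the block the TG call held in 1 of the 12 fits that left out a library (without TG untreated 1, adjusted p 0.0127 to 0.155 over the 12) and the IL4c call in 2 (without TG untreated 1 or TG SPARC 1, 0.0193 to 0.14).

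Atp6v0a2, the a isoform of the Golgi and early endosomes, went up. In IL4c cells it had 52.5, 51.8 and 52.1 CPM untreated and 69.3, 72.6 and 80.1 CPM with SPARC, with no overlap. The log2 change was 0.51 ± 0.10 (edgeR adjusted p = 0.00398), and the call held in each of the 12 fits that left out a library. In TG cells it had 56.7, 59.8 and 60.5 CPM untreated and 84.2, 64.6 and 70.2 CPM with SPARC, again without overlap, and a log2 change of 0.31 ± 0.10 (adjusted p = 0.0672, block 0.0526). An antisense gene, 4930404A12Rik, covers 9.86% of its exon bases. The a3 isoform has the symbol Tcirg1 and so falls outside the symbol rule. It is known from osteoclasts and late lysosomes, stood at 205 to 471 FPKM across libraries, above Atp6v0a1 (mean 93.8) and Atp6v0a2 (mean 18.8), and was not called with SPARC (-0.36 in TG and -0.02 in IL4c cells). Atp6v0a4, the kidney isoform, stayed under 1 count in all libraries.

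**Figure D3:**
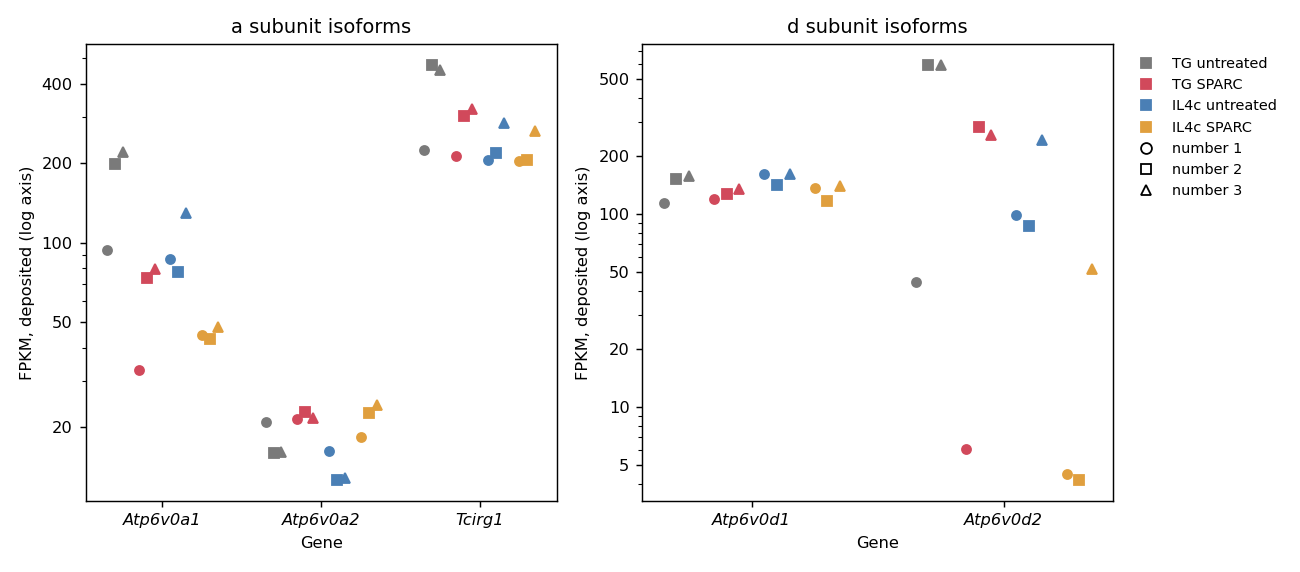
Deposited FPKM on a log axis for the a subunit genes Atp6v0a1, Atp6v0a2 and Tcirg1 (left) and the d subunit genes Atp6v0d1 and Atp6v0d2 (right). Each point is a library, colours are groups and shapes library numbers. With SPARC Atp6v0a1 is lower and Atp6v0a2 higher in IL4c cells, and Atp6v0d2 spans from 4.20 FPKM in IL4c SPARC to 592 in TG untreated.

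The d subunit joins the ring of V0 to the stalk of V1. Its common form, Atp6v0d1, had 249.4, 220 and 246 CPM in IL4c untreated and 209, 186 and 216 CPM in IL4c SPARC and passed in no SPARC comparison of all 12 libraries, with or without the block. Without both TG libraries numbered 1 it passed in IL4c cells (-0.23, adjusted p = 0.0404). Its macrophage and osteoclast form, Atp6v0d2, had the widest range of any tested member. It had 248, 223 and 609 CPM in IL4c untreated and 11.3, 10.8 and 131 CPM in IL4c SPARC, with no overlap. Within numbers it was 22.1-, 20.6- and 4.65-fold lower. The log2 change was -2.82 ± 1.45 (edgeR adjusted p = 0.18), and -3.68 ± 0.60 with the block (adjusted p = 0.00359). Without the block it also passed when both TG libraries numbered 1 were left out. In TG cells it had 99.7, 1425 and 1410 CPM untreated and 14.6, 698 and 630 CPM with SPARC. The number-1 libraries were again the lowest, and the level was 2.04- to 6.84-fold lower within numbers (block -1.62 ± 0.54, adjusted p = 0.0718). In IL4c cells Ctsk and Atp6v0d2, both osteoclast markers, thus had changes of opposite sign in all 3 pairs.

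The V1 part holds the ATP-splitting A and B subunits. Its genes and the remaining V0 and accessory genes had no SPARC call without the block by the edgeR test used above. Under other settings on all 12 libraries, Atp6v1g2 passed in TG cells (limma on log2(FPKM + 1)) and Atp6v0b in IL4c cells (total-count scaling). Atp6v1b2, the B subunit of most cells, had a log2 change of -0.39 ± 0.11 with the block in TG cells (adjusted p = 0.042), and Atp6v1c1, the C subunit that locks V1 to V0, -0.50 ± 0.14 (adjusted p = 0.0396). Without the block their adjusted p was 0.492 and 0.425. Atp6v1a, the A subunit, had -0.40 in TG and -0.20 in IL4c cells and passed in neither with all 12 libraries. In TG cells it passed without both libraries numbered 1 (-0.49, adjusted p = 0.0169). In IL4c cells with the block, Atp6v0b, a ring subunit, rose by 0.36 ± 0.08 (adjusted p = 0.008, with an antisense gene, Gm12841, over 11.8% of its exon bases), Atp6v1f, of the rotor stalk, by 0.31 ± 0.06 (0.0037) and Atp6ap2, the prorenin receptor, by 0.21 ± 0.07 (0.0484). Atp6v1g2, a stator subunit best known from neurons, had at most 5.55 CPM and a blocked change of -0.84 ± 0.28 in IL4c cells (adjusted p = 0.0405). Its exons overlap Nfkbil1 on the opposite strand by 5.74% of their bases. The proton-carrying ring gene Atp6v0c had changes of 0.05 in TG and -0.03 in IL4c cells, and Atp6v1d, Atp6v1e1, Atp6v1g1, Atp6v1h, Atp6v0e and Atp6ap1 passed in no SPARC comparison of all 12 libraries, with or without the block.

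**Figure D4:**
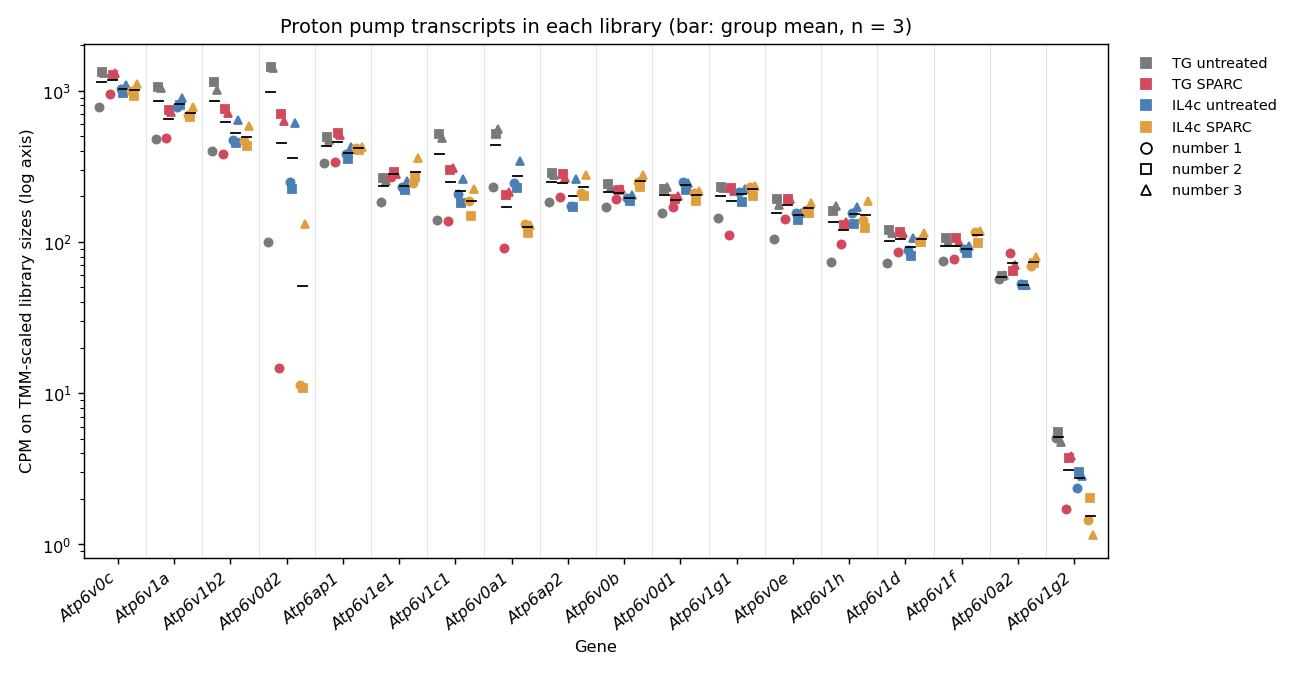
CPM on a log axis for the 18 tested pump genes in each of the 12 libraries. Colours are groups, shapes library numbers and bars group means (n = 3). Atp6v0d2 has the widest range, and the TG untreated library numbered 1 lies below the other TG untreated libraries for most genes.

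Whether SPARC acted differently in the 2 kinds of macrophage was tested as the difference of the 2 changes. No cathepsin and no pump gene passed by edgeR with or without the block, nor by DESeq2 without it, and 1 cathepsin (Ctso) and 0 pump genes had an unadjusted p under 0.05 without the block and 5 and 3 with it. Over all 15232 genes 0% were called without the block (1612 had an unadjusted p under 0.05, and DESeq2 called 316) and 3.10% with it. Without both TG libraries numbered 1, Ctsc passed at -1.60 (IL4c minus TG, adjusted p = 0.00835), where 5.41% of all genes were called. It also passed without TG untreated 1 alone (-1.54, adjusted p = 0.0178). With the block and without the TG number-1 libraries, a fit added after the data had been seen, 2 cathepsins passed, Ctsc (-1.61) and Ctsz (0.59), and 5 pump genes had a more positive change in IL4c cells, where 17.3% of all genes were called, 7.45% higher and 9.86% lower. The 5 were Atp6v1f, Atp6v1b2, Atp6v1c1, Atp6v0b and Atp6v0a2, at 0.29 to 0.50 (adjusted p 0.00894 to 0.0433). In the same fit 5 cathepsins and 5 pump genes passed for SPARC in TG cells, where 27.5% of all genes were called, and 10 and 13 in IL4c cells, where 53.6% were. A fit with the block and without both IL4c libraries numbered 3 was also added later. Its counts were 5 and 2 in TG cells (24.0% of all genes called) and 5 and 6 in IL4c cells (33.7%). The 5 in TG cells were Ctsb, Ctsd, Ctse, Ctsz and a member that had no test with all libraries and passed the low-count filter only here.

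IL4c and TG macrophages were also compared without SPARC. This comparison shares its untreated libraries with the SPARC comparisons. Ctsf and Ctso were higher and Ctsh lower in IL4c cells, where 21.0% of all genes were called (10.2% higher and 10.8% lower), and no pump gene passed by edgeR (1 had an unadjusted p under 0.05, and DESeq2 called 1). With the block 1 pump gene passed, Atp6v1g2, lower at -0.92 ± 0.28 (adjusted p = 0.0429), where 24.3% of all genes were called (12.6% lower). The block here is the bare number, which was not shown to pair samples across injections. Groups did not overlap for 4 of 12 cathepsins and 2 of 18 pump genes, against 39.0% of all genes. Scaling by total counts moved the median log2 change of all genes from -0.05 to -0.165 and the split of calls from 1548 higher and 1649 lower to 1154 and 2790. The 3 cathepsin calls, 2 higher and 1 lower, were also made under that scaling, and 1 pump gene was then lower.

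Ctsf had 8.49, 3.44 and 5.02 CPM in TG untreated and 19.6, 26.5 and 22.6 CPM in IL4c untreated. All IL4c libraries lay above all TG libraries, the log2 difference was 2.02 ± 0.32 (edgeR adjusted p = 0.00365), and it passed in each of the 12 fits that left out a library. Ctsh had 513, 556 and 510 CPM in TG and 347, 361 and 350 CPM in IL4c cells, without overlap (-0.58 ± 0.14, adjusted p = 0.0176). That call was lost without TG untreated 2 or 3 or IL4c untreated 1 or 2 (up to 0.108). Ctso had 87.2, 97.3 and 86.1 CPM in TG and 123, 126 and 112 CPM in IL4c cells (0.42 ± 0.11, adjusted p = 0.0269), a call lost in 6 of 12 such fits, those without any single TG untreated library, IL4c untreated 1 or 2, or IL4c SPARC 1 (up to 0.0928). Ctsf was thus higher in IL4c than in TG cells and, as given above, fell with SPARC in IL4c cells. Without both TG libraries numbered 1, 6 cathepsins and 11 pump genes passed, all 11 lower in IL4c cells, where 38.8% of all genes were called and 19.7% were lower. Among the 11, Atp6v1c1 (-1.21, adjusted p = 0.00124), Atp6v1b2 (-1.04, 0.0021) and Atp6v0a1 (-0.97, 0.00184) differed most, and among the cathepsins Ctsk (-2.72, 0.0159) and Ctss (-0.74, 0.00242) were lower too.

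Lists of other lysosomal genes are given by their calls without the block, those with it, and their median log2 change. Over all genes 11.3% were called in TG and 27.8% in IL4c cells without the block, and 27.3% and 45.2% with it. Of 36 acid hydrolases other than cathepsins, 4 rose and 2 fell with SPARC in TG cells (median 0.04) and 7 rose and 7 fell in IL4c cells (0.19). With the block these were 9 and 7 in TG and 15 and 10 in IL4c cells. Acp5, the tartrate-resistant acid phosphatase, went from 110, 140 and 158 CPM to 725, 805 and 839 CPM in TG cells and from 66.7, 80.0 and 160 CPM to 656, 713 and 635 CPM in IL4c cells. No SPARC library overlapped an untreated one (2.54 ± 0.30, adjusted p = 0.00129, and 2.71 ± 0.30, adjusted p = 0.000272). Acp2, another acid phosphatase, rose by 0.73 and 1.21 (adjusted p 0.00506 and 0.000149). Pla2g15, a lysosomal phospholipase, fell by 1.18 in TG and by 1.8 in IL4c cells (0.0101 and 0.000481). Glb1, the lysosomal beta-galactosidase, fell by 1.16 with SPARC in IL4c cells (adjusted p = 0.00243) and was 2.31 higher in IL4c than TG untreated cells (0.000292), a comparison in which 8 hydrolases were higher and 2 lower and 21.0% of all genes were called.

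The counts of the sorting and control lists stand against the same 11.3% (TG) and 27.8% (IL4c) of all genes called without the block, and 27.3% and 45.2% with it. Of 11 genes that sort hydrolases to the lysosome, 1 rose and 2 fell in TG (median -0.07, block 3 and 4) and 2 rose and 3 fell in IL4c cells (-0.10, block 4 and 5). Sort1, the receptor sortilin, went from 295, 282 and 288 CPM to 182, 204 and 190 CPM in TG cells and from 402, 417 and 379 CPM to 119, 98.8 and 133 CPM in IL4c cells. It fell in both (by 0.59, adjusted p = 0.00959, and by 1.78, adjusted p = 1.82e-05), while Gnptab, which makes the mannose 6-phosphate tag, rose in both (0.72, adjusted p = 0.0313, and 1.27, adjusted p = 0.000966). Gga3, a coat adaptor of that route, fell by 0.35 and by 0.31 (0.0161 and 0.0127). Of 18 genes of lysosomal gene control, 2 rose and 2 fell in TG (median -0.18, block 2 and 7) and 1 rose and 3 fell in IL4c cells (-0.26, block 2 and 7). Tfeb, which drives many lysosomal genes, had 39.2, 63.5 and 64.6 CPM in TG untreated and 23.7, 32.6 and 33.0 CPM in TG SPARC, and 27.0, 29.5 and 39.4 CPM against 12.5, 11.7 and 15.4 CPM in IL4c cells. It fell by 0.90 (adjusted p = 0.0304) and by 1.28 (0.00308), and Flcn, a regulator of TFEB, by 0.61 and by 0.54 (0.00501 and 0.00293).

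For the inhibitors, the further pump genes and the membrane proteins the background is again 11.3% in TG and 27.8% in IL4c cells, and 27.3% and 45.2% with the block. Of 10 tested cathepsin inhibitors, 1 rose in TG (Serpina3g, 2.56, adjusted p = 0.0237) and 3 rose in IL4c cells (Cstb, Serpinb6b and Stfa3), with none lower. With the block 6 rose and 1 fell in TG and 3 rose and 1 fell in IL4c cells. Cstb, or cystatin B, which blocks cysteine cathepsins, rose by 0.96 ± 0.25 (adjusted p = 0.0164). The median log2 change of the 10 was 0.78 in TG and 0.90 in IL4c cells. Of 12 further pump genes outside the symbol rule, 1 rose and 1 fell in TG (median 0.09, block 1 and 2) and 3 rose and 2 fell in IL4c cells (0.02, block 3 and 3). Dmxl1 fell (by 0.67, adjusted p = 0.0131, and by 1.26, adjusted p = 0.000238) and its paralog Dmxl2 rose (0.63, adjusted p = 0.0135, and 0.61, adjusted p = 0.00628), both being scaffolds that help V1 join V0. Of 19 lysosomal membrane proteins, 1 fell in TG (Slc38a9, median -0.24, block 1 higher and 7 lower) and 2 rose and 4 fell in IL4c cells (-0.18, block 2 and 7), among them Clcn7, the chloride exchanger of the lysosome, which rose by 0.89 (adjusted p = 0.034), and Slc17a5, the sialic acid exporter, which fell by 0.83 (0.00791). In the same IL4c comparison the sum of the macrophage markers, led by Lyz2, was lower with SPARC, as given above, and its part in these changes was not tested.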

How the data were processed

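Peritoneal macrophages were profiled by polyA RNA-seq in 12 libraries, 3 in each of 4 groups. Members and gene lists were chosen with earlier results of these data known. The authors deposited expected counts per gene (7.97% are not whole numbers) and FPKM values, which they scaled for gene length and depth. CASAVA, bcl2fastq 1.8.4, STAR and RSEM are listed in the submitters' processing notes. Which build, annotation and strand setting the counting used is not given in the sources used here. Positions come from the GENCODE annotation of GRCm38, which holds all 43 members by identifier without version and 27 with it.

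After rounding, counts entered the quasi-likelihood test of edgeR 4.0.16 in R 4.3.3 (TMM scaling, filterByExpr with a minimum count of 10, robust dispersion). All 12 libraries entered in 4 groups, with 15232 genes, 8 residual degrees of freedom and a common biological coefficient of variation of 0.308. Calls were made at a Benjamini-Hochberg adjusted p under 0.05 over all genes. CPM values use TMM-scaled sizes. Depth was 31501941 to 42288785 counts. On the TMM-scaled sizes, 30814553 to 42424154, 3 counts equal 0.0707 to 0.0974 CPM (counting error only). The standard error is the log2 change divided by the square root of F. The script was tested on simulated data. The rule for naming genes took the members called in a comparison, the isoforms of pump subunits and, of each other list, up to 4 called genes with the smallest p.

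Numbers in the labels were checked for pairing. Deviations from group means correlated at 0.342 to 0.735 in the 6 same-numbered pairs within an injection. Different numbers within an injection gave -0.659 to 0.507, and same numbers across injections -0.178 to 0.25. Numbers were therefore read as pairs within an injection and used as a block there. These ranges overlap within an injection. TG untreated 2 with TG SPARC 3 gave 0.507 and TG untreated 3 with TG SPARC 2 gave 0.448, against 0.599 and 0.533 for their same-numbered pairs. In TG cells the check thus set number 1 apart clearly, and numbers 2 and 3 from each other only weakly. For IL4c against TG the block is the bare number, which the check did not show to pair samples. Separate animals per library are not stated in the labels, and the p-values measure only the spread between these libraries, which may be technical. No 2 libraries of a group agreed within sampling noise (chi-square per degree of freedom 9.82 to 359). Alternatives were RLE and total-count scaling, no and a stricter filter, the compared groups alone, limma 3.58.1 on log2(FPKM + 1) or log2(FPKM + 0.1), DESeq2 1.42.0, the block and left-out libraries.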

Additional observations from a re-analysis of the deposited data

How the results depend on the processing

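No member's value changed sign where it was called: of 1565 member values under alternatives, 1366 kept their side of the threshold, 126 passed and 73 no longer passed, and 0 reversed. The counts moved more. Below, "no TG 1" stands for leaving out both TG libraries numbered 1 and "no IL4c 3" for leaving out both IL4c libraries numbered 3. Without the block, cathepsins called with SPARC in TG cells were 0, and were 1 with DESeq2 and 3 with no TG 1. Of all genes, 11.3% were called, and 3.55% to 16.7% over all settings without the block (16.1% with DESeq2, 14.6% with no TG 1). The pump count in TG cells was 1, and was 0 with no low-count filter, with the compared groups fitted alone, with unfiltered log2(FPKM + 1) and no IL4c 3, 2 with limma on log2(FPKM + 1) and with DESeq2, and 3 with no TG 1. In IL4c cells cathepsins called were 3, and were 2 with total-count scaling and with no low-count filter, 4 with limma in each setting and with DESeq2, 6 with the compared groups fitted alone, 7 with no TG 1 and 0 with no IL4c 3. The pump count there was 2, and was 1 with RLE scaling, with no low-count filter, with limma at either pseudocount or unfiltered and no IL4c 3, 3 with total-count scaling, 4 with the compared groups fitted alone and 7 with no TG 1. Of all genes, 27.8% were called, and 12.9% to 42.1% over all settings without the block (35.5% with the groups fitted alone, 42.1% with no TG 1, 17.1% with no IL4c 3). For IL4c against TG, cathepsins called were 3, and were 2 with no low-count filter and with limma in each setting, 6 with no TG 1 and 1 with no IL4c 3. The pump count there was 0, and was 1 with total-count scaling, with the compared groups fitted alone, with limma at either pseudocount or unfiltered and with DESeq2, and 11 with no TG 1. Of all genes, 21.0% were called, and 8.75% to 38.8% over all settings without the block (38.8% with no TG 1, 16.1% with no IL4c 3). For the difference of the SPARC changes, 1 cathepsin passed with no TG 1, where 5.41% of all genes did. Apart from the settings' own construction, the cause was not tested.

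With the replicate block, the counts were 3 cathepsins and 3 pump genes in TG cells and 9 and 7 in IL4c cells. No count changed for the difference of the SPARC changes. For IL4c against TG, where the block is the bare number and was not shown to pair samples, 1 pump gene passed. With the block and no TG 1, a setting chosen after seeing the data, 5 cathepsins and 5 pump genes passed in TG cells, 10 and 13 in IL4c cells, and 2 and 5 for the difference. With the block and no IL4c 3, also chosen then, these were 5 and 2 in TG cells and 5 and 6 in IL4c cells. The 5 cathepsins in TG cells include a member that had no test with all libraries.

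Leaving out 1 library at a time gave 0 to 1 cathepsins and 0 to 2 pump genes in TG cells, 0 to 5 and 1 to 3 in IL4c cells, 1 to 3 and 0 to 2 for IL4c against TG, and 0 to 1 and 0 to 0 for the difference. Over all genes these fits called 4.68% to 13.4%, 15.9% to 33.2%, 8.75% to 29.3% and 0% to 1.78%. Scaling by total counts moved the split of all calls in TG cells from 1025 higher and 689 lower to 758 and 938. The low-count filter asked for about 10 counts in as many libraries as the smallest group holds, and members that fell short were not tested.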

Other observations

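Among the members without a test, Ctsw stood out by its counts in a single library. This cathepsin of cytotoxic lymphocytes had 91 counts in the TG SPARC library numbered 1, 15 in the TG untreated library numbered 1 and at most 8 in any other. The markers of T and NK cells (11 listed, 5 tested) summed to 12.9 and 6.54 CPM in those 2 libraries and to 0.288 to 4.19 CPM in the others. Ctsg, a neutrophil serine protease, had at most 1 count in any library. Ctsj, Ctsm, Ctsq and Ctsr, which in mouse belong to the placental cathepsins, were at 0 in all 12. In the shallowest library, 0 of 31501941 counts allows up to 0.0974 CPM on its TMM-scaled size. Among pump genes, Atp6v1b1 and Atp6ap1l were at 0, Atp6v0a4, Atp6v1c2, Atp6v1g3 and Atp6v1e2 had at most 3 counts, and Atp6v0e2 had 2 to 10.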
